A study of Mus musculus with 2 samples.

Results

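Heat shock chaperones were followed as 10 named genes out of the 28692 genes in the count tables of a single-cell study of the mouse habenula. They were chosen by name, and each was read in both libraries, in every cell class defined by marker genes, and in free RNA, which is the RNA caught in droplets that held no cell. Hspa1a, Hspa1b, Dnajb1, Hsph1 and Hspb1 were counted as the 5 inducible members, and Hspa8, Hsp90aa1, Dnaja1, Hspd1 and Hspe1 as the 5 constitutive members.

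The habenula is a small paired structure above the thalamus divided into medial (MHb) and lateral (LHb) nuclei, and the tissue came from adult male C57BL/6 mice of 50 to 55 days. All mice had been handled for 5 min a day over 7 days. The control group came straight from the home cage. The foot shock group had also spent 10 min a day in the shock chamber over 7 days, and was then given, within 60 min, 30 shocks that lasted 1 s at 0.3 mA. Punches from 4 mice per group were pooled into 1 library per group, so each group is 1 library. In both groups the solutions from perfusion onwards held TTX, APV, DNQX, actinomycin and anysomycin, which block neuronal firing, glutamate receptors, transcription and translation. Also in both, slices were left to recover for 30 min, the punches were digested with pronase for 45 min, and dead cells were removed. With 1 library per group no test between the groups was possible. Ratios of foot shock to control carry 95% intervals that cover counting error only, and the treatment cannot be told apart from any other difference between the 2 libraries.

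Heat shock proteins are molecular chaperones, which bind unfolded stretches of protein and help them fold, refold or be degraded. HSP70 proteins hold and release their clients in a cycle driven by ATP, J-domain proteins such as Dnajb1 and Dnaja1 start the cycle, exchange factors such as Hsph1 reset it, and HSP90 takes over part of the clients. When unfolded protein builds up, the transcription factor HSF1 is set free and binds heat shock elements, which are inverted repeats of the letters GAA, in the promoters of the inducible members, while constitutive members serve routine folding. In the brain, glia and vascular cells are known to induce HSP70 more readily than neurons.

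The control library held 23095501 unique molecular identifiers (UMIs, each 1 captured transcript end) against 22189951 in the foot shock library. Filters left 4880 and 4771 cells, at median depths of 2416.5 and 2698 UMIs, and 32 cell barcodes occurred in both libraries. Of the marker-defined classes, 9 had at least 50 cells in each library and were compared, from 1208 and 1623 MHb-like neurons (control, foot shock) down to 54 and 61 mural-like cells. In the MHb-like neurons 9 of 9 MHb markers were found in both libraries, at a sum of 2420 and 2448 CPM, which are UMIs per 1000000 UMIs of the class, and 6 of 6 LHb markers in the LHb-like neurons at 2349 and 2292 CPM. A group of 503 epithelial-like cells and 45 fibroblast-like cells occurred in the foot shock library alone, and their part in the values of free RNA was not tested. All levels below are CPM of a class and library, and gene positions are those of GENCODE vM21 on mm10. Levels have no scaling by gene length because 3' end counting gives 1 UMI per transcript end.

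In the habenular neurons and the oligodendrocyte-like cells the members that stood higher in the foot shock library were Hspa1a, Hspa1b and Dnajb1. A member was called higher or lower at a ratio of at least 1.5 in either direction, and counted as measured where the 2 libraries together held at least 20 UMIs. In MHb-like neurons 3 of 9 measured members were higher by this rule, against 3.08% of 11760 measured genes, and 0 were lower, against 4.55%. In LHb-like neurons the same 3 members of 9 were higher, against 3.59% of 12046 genes, and 0 were lower, against 4.94%, and in oligodendrocyte-like cells again these 3 of 9, against 5.35% of 9108 genes, with 0 lower, against 13.8%. The median log2 ratio of the measured members was 0.35 in MHb-like neurons, 0.33 in LHb-like neurons and 0.28 in oligodendrocyte-like cells, where all measured genes had medians of -0.04, -0.05 and -0.11. The counting interval lay wholly above 1 for 8 of 9 members in MHb-like neurons, against 6.6% of genes, and for 6 of 9 in each of the other classes named, against 6.27% in LHb-like neurons and 5.42% in oligodendrocyte-like cells. It lay wholly below 1 for 1 of 9 members in LHb-like neurons, Hspa8, against 11.2% of genes. Intervals narrow as UMIs rise, and the genes set beside the members were not matched for level. In MHb-like neurons, for example, Hspe1 cleared 1 at a ratio of 1.17 on 1447 and 1888 UMIs.

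**Figure D1:**
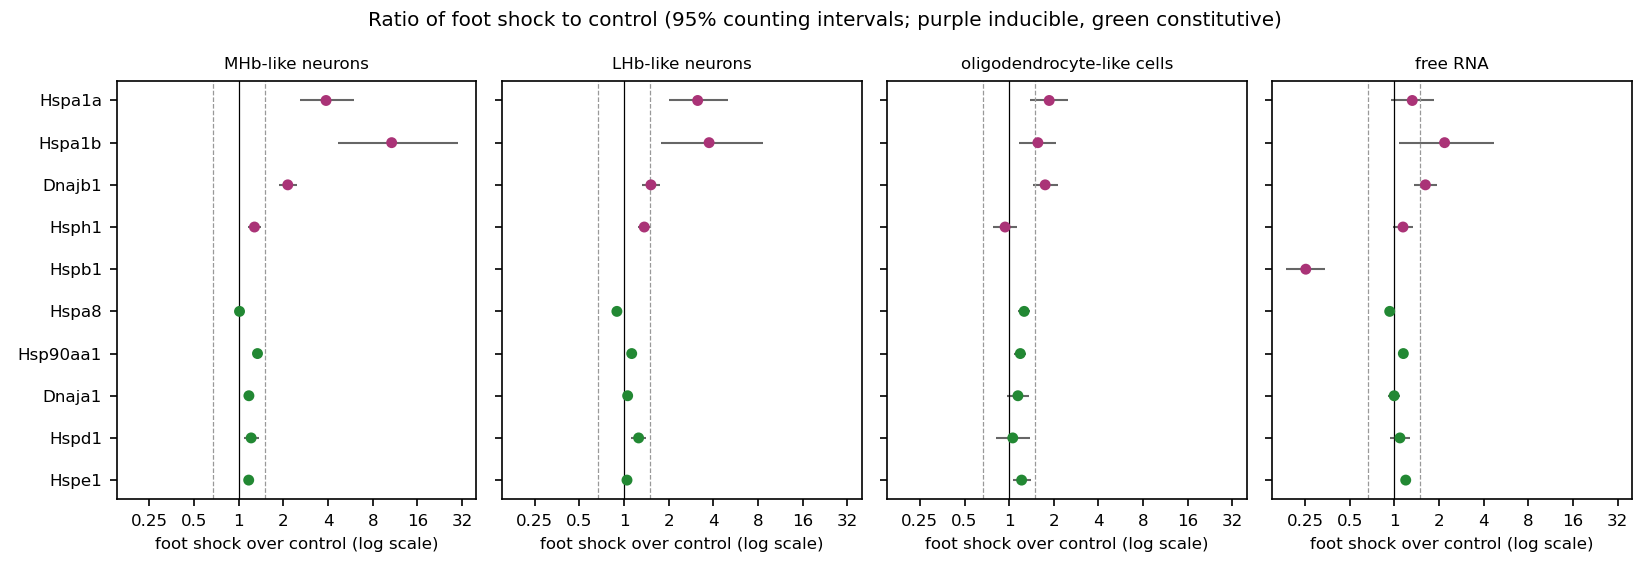
Ratio of foot shock to control (x axis, log scale) for each measured member in MHb-like neurons, LHb-like neurons, oligodendrocyte-like cells and free RNA; points are ratios, bars 95% counting intervals, purple the inducible and green the constitutive members, dashed lines 1.5-fold in either direction, and a missing point a member under 20 UMIs. Hspa1a, Hspa1b and Dnajb1 lie to the right of the 1.5-fold line in the 3 cell classes, Hspa8 lies at 1.01, 0.896 and 1.26, and Hspb1 is on the left in free RNA at 0.253.

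Hspa1a (ENSMUSG00000091971, chr17:34969190-34972156, minus strand) and Hspa1b (ENSMUSG00000090877, chr17:34956436-34959238, minus strand) encode nearly the same cytosolic HSP70 protein, the chaperone most closely tied to the heat shock response. In MHb-like neurons Hspa1a was at 5.98 CPM (30 UMIs) in the control library and 23.1 CPM in that of foot shock (130 UMIs), a ratio of 3.87 (95% interval 2.59 to 5.97). Hspa1b was at 1.20 CPM (6 UMIs) and 12.8 CPM (72 UMIs), a ratio of 10.7 (4.69 to 30.2). Both genes were thus rare in these neurons, and the 2 libraries did not overlap within counting error. In LHb-like neurons Hspa1a was at 5.65 and 17.7 CPM, with a ratio of 3.14 (2.00 to 5.03), and Hspa1b at 1.95 and 7.30 CPM, with a ratio of 3.75 (1.77 to 8.65). Oligodendrocyte-like cells held more of both genes in the control library. There Hspa1a was at 35.9 CPM in the control library and 66.9 CPM in that of foot shock, a ratio of 1.86 (1.39 to 2.50), and Hspa1b at 40.1 and 62.7 CPM, with a ratio of 1.56 (1.17 to 2.08). The ratio of Hspa1b in these cells was 1.45 with called doublets kept and 1.48 with cells from 500 UMIs, which ends its call.

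Among the 9 compared classes the order by Hspa1a was headed by the COP-like cells, committed precursors of oligodendrocytes, at 54.0 CPM in the control library and 185 CPM in that of foot shock, a ratio of 3.43 (1.86 to 6.61). Hspa1b in COP-like cells was at 20.3 and 105 CPM, with a ratio of 5.19 (2.03 to 15.7). A few cells carried these counts. In COP-like cells of the foot shock library 19 of 68 cells held the 58 UMIs of the pair, 14 of them in 1 cell, and in control 9 of 93 cells held 22 UMIs, 9 of them in 1 cell. Mural-like cells followed with Hspa1a at 37.0 and 158 CPM, on 3 and 13 UMIs, and then oligodendrocyte-like cells, whose Hspa1a interval lay above that of MHb-like neurons in both libraries. At the bottom, Hspa1a had 1 UMI in each library in astrocyte-like cells, 0 and 1 in microglia-like cells and 3 and 0 in thalamus-like neurons. Too few UMIs were found there for a ratio, and Hspa1b was likewise at 0 or 1 UMI in each of these classes. OPC-like cells, the earlier oligodendrocyte precursors, held 1 and 4 UMIs of Hspa1a and 0 of Hspa1b.

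**Figure D2:**
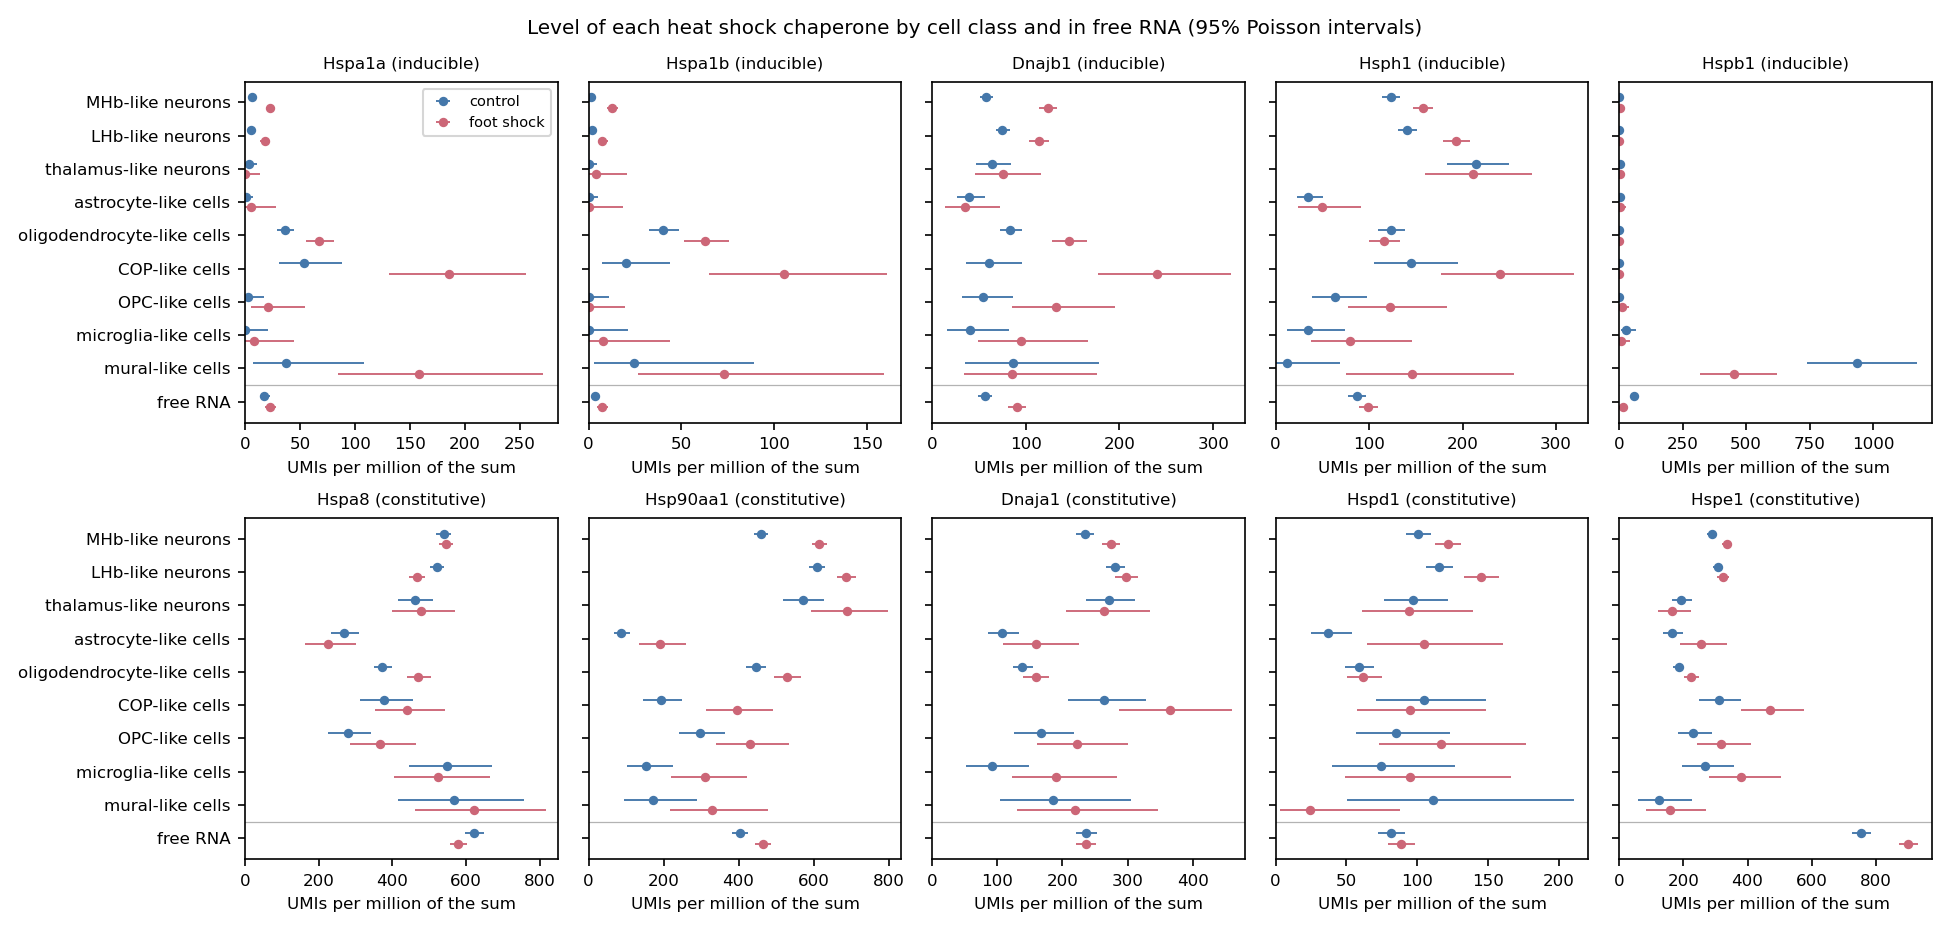
Level of each member (x axis, CPM of the summed class) in the 9 compared classes and in free RNA, control in blue and foot shock in red; points are levels and bars 95% Poisson intervals, and each panel has its own scale. Hspa1a and Hspa1b are near 0 in thalamus-like neurons and astrocyte-like cells, Hspb1 stands out in mural-like cells, and Hspe1 is higher in free RNA than in any of the 9 classes.

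Free RNA gives UMIs in cells that do not make a transcript, so the same genes were read there. Free RNA held Hspa1a at 17.5 CPM in the control library and 23.1 CPM in that of foot shock, a ratio of 1.32 (0.946 to 1.85), and Hspa1b at 3.33 and 7.26 CPM, with a ratio of 2.18 (1.07 to 4.71). Hspa1a of MHb-like neurons was therefore below free RNA in control and level with it in foot shock, and Hspa1a of LHb-like neurons was below it in both, with overlapping intervals in foot shock. In neither class and library did the Hspa1a level of these neurons lie above that of free RNA beyond counting error. Barcodes of 1 to 9 UMIs gave the opposite direction, with Hspa1a at 79.6 and 26.0 CPM on 29 and 12 UMIs, and those above 100 and up to 300 UMIs gave 10.9 and 31.0 CPM on 6 and 15 UMIs. The neurons were below these levels as well. From markers of other cell types, free RNA made up an estimated 21.1% and 15.1% of the UMIs of MHb-like neurons and 19.8% and 14.6% of those of LHb-like neurons. With that share taken off, the Hspa1a ratio was 7.98 in MHb-like neurons and 6.17 in LHb-like neurons, and the Hspa1b ratio 22.1 in MHb-like neurons. The same shares would bring 18.5 and 19.5 UMIs of Hspa1a (control, foot shock) to MHb-like neurons, where 30 and 130 were found. To LHb-like neurons they would bring 17.8 and 12.9, where 29 and 68 were found. Of Hspa1b they would bring 3.52 and 6.14 to MHb-like neurons, where 6 and 72 were found. Of Hspb1 they would bring 60.7 UMIs to control MHb-like neurons and 24.7 to control oligodendrocyte-like cells, where 6 and 0 were found. For Hspb1 the subtracted share is thus too large, and ratios with free RNA taken off are given as an alternative alone. Giving each cell equal weight put the Hspa1b ratio at 6.69 in MHb-like neurons and 5.88 in LHb-like neurons, values that rest on few control UMIs.

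A Hspa1a UMI was found in 2.48% of 1208 MHb-like neurons in control and 7.09% of 1623 in foot shock, although the median depth was lower in foot shock (4224.5 and 3463 UMIs). With each cell thinned to 1000 UMIs, which left out no cell, these shares were 0.650% and 2.18%. Astrocyte-like cells served as the low class, with 0.109% and 0.222% after thinning (1 of 593 and 1 of 148 cells, median depths 1185 and 1182.5 UMIs). The thinned share in LHb-like neurons was 0.533% and 1.64%, from 2.39% and 5.94% unthinned. In oligodendrocyte-like cells it was 3.21% and 6.08%, from 6.76% and 11.1% unthinned. In MHb-like neurons of the control library no cell had more than 1 UMI of the pair, and in foot shock 23 of the 172 cells with a UMI had 2 or more, with at most 4 in 1 cell. The pair was thus spread over many neurons at 1 or a few UMIs each.

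Reads of the 2 genes can be confused, because 58.8% of the 50-base stretches of the Hspa1a transcript also occur in that of Hspa1b. None of 451 such stretches in the last 500 bases is shared (GENCODE vM21), and 3' libraries read mainly that end, but the treatment of reads that match both was not given in the sources used here. As counted, Hspa1b made up 16.7% (6.37 to 32.8) of the pair's UMIs in MHb-like neurons in control and 35.6% (29.0 to 42.7) in foot shock. In oligodendrocyte-like cells it made up 52.8% (45.2 to 60.2) and 48.4% (41.6 to 55.2), in LHb-like neurons 25.6% and 29.2%, and in free RNA 16% and 23.9%. Oligodendrocyte-like cells thus counted the 2 genes about equally, and in both libraries their interval for the Hspa1b share lay above that of free RNA. Summed, the pair had a ratio of 5.01 (3.504 to 7.36) in MHb-like neurons, 3.29 (2.25 to 4.91) in LHb-like neurons, 1.70 (1.39 to 2.09) in oligodendrocyte-like cells and 1.46 (1.08 to 1.98) in free RNA.

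The promoters of 4 members are shown because they set the near-identical inducible pair beside its partner Dnajb1 and a constitutive member with a dense run of heat shock element letters. Each is the 250 bases before the start of the gene from RefSeq (GRCm38.p6), 5' to 3' on the gene's strand: Hspa1a at chr17:34972157-34972406 (minus), Hspa1b at chr17:34959239-34959488 (minus), Dnajb1 at chr8:83607925-83608174 (plus) and Hspe1 at chr1:55087898-55088147 (plus). Capitals mark GAANNTTC or TTCNNGAA, the 2 ways in which neighbouring GAA repeats can face each other. Each reads the same on both strands, and matches of the 2 can overlap.
Hspa1a: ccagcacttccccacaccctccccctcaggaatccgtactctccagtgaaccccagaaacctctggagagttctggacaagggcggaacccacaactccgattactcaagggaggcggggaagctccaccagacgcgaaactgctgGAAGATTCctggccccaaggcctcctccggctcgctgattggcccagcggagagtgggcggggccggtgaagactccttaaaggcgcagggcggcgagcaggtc
Hspa1b: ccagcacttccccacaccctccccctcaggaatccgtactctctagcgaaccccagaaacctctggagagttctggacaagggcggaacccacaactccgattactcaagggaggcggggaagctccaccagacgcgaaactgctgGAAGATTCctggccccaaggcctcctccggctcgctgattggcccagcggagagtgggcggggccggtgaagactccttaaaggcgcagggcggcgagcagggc
Dnajb1: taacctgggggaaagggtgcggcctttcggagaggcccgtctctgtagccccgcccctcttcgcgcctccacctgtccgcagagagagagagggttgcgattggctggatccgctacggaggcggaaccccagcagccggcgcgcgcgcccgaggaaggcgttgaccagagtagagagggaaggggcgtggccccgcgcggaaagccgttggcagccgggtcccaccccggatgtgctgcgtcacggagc
Hspe1: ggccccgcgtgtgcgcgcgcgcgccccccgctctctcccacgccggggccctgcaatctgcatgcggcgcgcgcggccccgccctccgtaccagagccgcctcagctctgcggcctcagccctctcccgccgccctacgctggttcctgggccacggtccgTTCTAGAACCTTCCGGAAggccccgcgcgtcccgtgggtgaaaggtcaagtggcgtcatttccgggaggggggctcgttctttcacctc

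The Hspa1a and Hspa1b windows are the same at 247 of 250 bases (98.8%), with the substitutions C44T, T47C and T249G, written with the base of Hspa1a first and positions counted from 1 at the 5' end of the window. Both hold GAAGATTC, 104 bases before the start. The Hspe1 window holds 3 overlapping matches in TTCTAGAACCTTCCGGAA, beginning 89, 84 and 79 bases before the start. RefSeq entries matched 8 members, and either motif occurred in 6 of them: besides those shown, Hsph1 (33 bases before the listed start), Dnaja1 (124 bases) and Hspb1 (117 and 97 bases). The windows of Dnajb1 and Hspd1 had no match, which says only that these letters are not in those 250 bases. Of 27025 promoters of the same length, 6.78% held GAANNTTC, 7.16% held TTCNNGAA and 12.9% held either. A match describes the letters and shows neither binding nor a cause. Promoters of Hspa8 and Hsp90aa1 are not shown.

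Dnajb1 (ENSMUSG00000005483, chr8:83608193-83612653, plus strand) encodes the inducible J-domain protein that hands unfolded clients to HSP70. It was at 57.8 CPM (290 UMIs) in the control library and 124 CPM in that of foot shock (694 UMIs) in MHb-like neurons, a ratio of 2.14 (1.86 to 2.46). In LHb-like neurons it was at 75.2 and 114 CPM, with a ratio of 1.52 (1.32 to 1.75), which was 1.48 with free RNA taken off and 1.497 in cells of at least 2000 UMIs, which ends its call. In oligodendrocyte-like cells it was at 83.7 and 146 CPM, with a ratio of 1.75 (1.44 to 2.12). Dnajb1 was thus more abundant than Hspa1a in each of these classes and had a smaller ratio than Hspa1a in the neurons. COP-like cells had 60.8 and 240.4 CPM (3.96, 2.26 to 7.23) and OPC-like cells 54.7 and 133 CPM (2.42, 1.27 to 4.71). Thalamus-like neurons, at 63.9 and 75.5 CPM, and astrocyte-like cells, at 39.9 and 35.0 CPM, had intervals that held 1 (1.18, 0.666 to 2.02, and 0.877, 0.325 to 2.04).

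In control the class intervals of Dnajb1 overlapped from each class to the next, and in foot shock COP-like cells lay above oligodendrocyte-like cells. Free RNA held Dnajb1 at 56.0 and 90.7 CPM, with a ratio of 1.62 (1.36 to 1.94). At 1000 UMIs per cell, 5.31% and 11.3% of MHb-like neurons had a Dnajb1 UMI (21.4% and 33.3% unthinned), 5.99% and 9.45% of LHb-like neurons (25.1% and 29.6%), and 7.64% and 13.4% of oligodendrocyte-like cells (16.1% and 23.6%). Astrocyte-like cells gave 3.72% and 2.17% at the same depth, which is the lower reference. Of MHb-like neurons in the foot shock library, 43.5% of the 115 cells with a Hspa1a UMI also had a Dnajb1 UMI, against 32.5% of the cells without, at median depths of 3754 and 3450 UMIs.

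Hsph1 (ENSMUSG00000029657, chr5:149614287-149636376, minus strand) encodes an exchange factor of the HSP110 kind. It was at 123 and 157 CPM in MHb-like neurons, a ratio of 1.27 (1.15 to 1.41), and at 141 and 193 CPM in LHb-like neurons, a ratio of 1.37 (1.23 to 1.52). Neither reached 1.5-fold. In oligodendrocyte-like cells Hsph1 was at 123 and 116 CPM (0.939, 0.779 to 1.13). That interval holds 1. It was at least 1.5-fold higher in COP-like cells, at 145 and 240.4 CPM (1.66, 1.07 to 2.56), and in OPC-like cells, at 63.9 and 122 CPM (1.91, 1.01 to 3.63). The OPC-like ratio was 1.18 in cells of at least 2000 UMIs. Thalamus-like neurons, at 215 and 211 CPM, had a high level in both libraries.

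Hspb1 (ENSMUSG00000004951, chr5:135887919-135889563, plus strand) encodes a small heat shock protein that holds unfolded clients without ATP and is known from muscle and vessel walls. Of the compared classes it was measured in mural-like cells alone, at 937 CPM (76 UMIs) in the control library and 451 CPM in that of foot shock (37 UMIs), a ratio of 0.481 (0.316 to 0.722). A Hspb1 UMI was found in 70.4% of 54 and 41.0% of 61 mural-like cells, and in 57.6% and 35.5% at 1000 UMIs per cell. In oligodendrocyte-like cells, the low class, the gene had 0 UMIs in 1080 control cells, which allows up to 1.27 CPM, and 3 UMIs in 828 foot shock cells (median depths 2067 and 1845.5 UMIs). MHb-like neurons held 6 and 12 UMIs. In free RNA, read from barcodes of 10 to 100 UMIs, Hspb1 was at 57.4 and 14.5 CPM, with a ratio of 0.253 (0.185 to 0.341). Its level there depends on the barcodes read: those of 1 to 9 UMIs gave 178 and 62.8 CPM, and those above 100 and up to 300 UMIs gave 31.0 and 33.0 CPM on 17 and 16 UMIs, where the lower call ends. The mural-like cells of the foot shock library also held more oligodendrocyte markers (321 CPM with 7 of 10 found in control, 2181 CPM with 10 of 10 in foot shock) and more endothelial markers (12.3 CPM with 1 of 7 found, 134 CPM with 5 of 7). Their own markers summed to 12814 CPM with 9 of 10 found and 10090 CPM with 8 of 10 found, Kcnj8 being at 0 in both and Abcc9 in foot shock. The part of these markers in the Hspb1 value was not tested. Free RNA is shed by every class at once, so fewer mural cells and less Hspb1 RNA per cell cannot be told apart there.

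Hspa8 (ENSMUSG00000015656, chr9:40800984-40810087, plus strand) encodes HSC70, the constitutive counterpart of the Hspa1a and Hspa1b protein. It was at 539.6 CPM in the control library and 546 CPM in that of foot shock in MHb-like neurons, a ratio of 1.01 (0.960 to 1.07). In LHb-like neurons it was at 521 and 467 CPM, with a ratio of 0.896 (0.843 to 0.951), and in oligodendrocyte-like cells at 373 and 471 CPM, with a ratio of 1.26 (1.15 to 1.39). The libraries thus differed by less than 1.5-fold in each, in opposite directions in the LHb-like neurons and the oligodendrocyte-like cells. Over the 9 classes the Hspa8 ratio ran from 0.833 to 1.31 and none reached 1.5-fold. Alternatives put it past that in 3 small classes, at 2.68 in OPC-like and 1.58 in mural-like cells with free RNA taken off, and at 1.63 in astrocyte-like cells of at least 2000 UMIs. In control its level was above the free RNA level of 622 CPM in 0 of 9 classes, and in foot shock, against 579 CPM, in mural-like cells alone at 621.5 CPM.

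Hsp90aa1 (ENSMUSG00000021270, chr12:110690605-110702728, minus strand) encodes the more stress-responsive of the cytosolic HSP90 proteins, here counted as constitutive. In MHb-like neurons it was at 460.5 and 615 CPM, with a ratio of 1.34 (1.27 to 1.41). LHb-like neurons had 609.9 and 687 CPM, with a ratio of 1.13 (1.07 to 1.19), and oligodendrocyte-like cells 445 and 529.5 CPM, with a ratio of 1.19 (1.09 to 1.30). Hsp90aa1 was the member with the most even direction: its ratio was above 1 in 9 of 9 classes, from 1.13 to 2.20, and its interval lay above 1 in 8 of them, mural-like cells being the exception. It was at least 1.5-fold higher in 4 classes, namely astrocyte-like cells at 86.4 and 190 CPM (2.20, 1.43 to 3.33), COP-like cells at 192 and 396 CPM (2.06, 1.44 to 2.94), microglia-like cells at 154 and 309 CPM (2.00, 1.20 to 3.40) and mural-like cells at 173 and 329 CPM (1.91, 0.965 to 3.93). Keeping called doublets put microglia-like cells at 1.42, which ends that call. By level, the neuronal classes came first and astrocyte-like cells last in both libraries. Hsp90ab1, its constitutive paralog, had ratios of 1.08 (1.04 to 1.13) in MHb-like neurons and 1.08 (1.03 to 1.14) in LHb-like neurons.

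Dnaja1 (ENSMUSG00000028410, chr4:40722150-40737149, plus strand) encodes a J-domain partner of Hspa8. It was at 234 and 274 CPM in MHb-like neurons (1.17, 1.08 to 1.26), 281 and 298 CPM in LHb-like neurons (1.06, 0.979 to 1.14) and 139 and 159 CPM in oligodendrocyte-like cells (1.15, 0.971 to 1.35). One class of 9 passed 1.5-fold, microglia-like cells at 91.4 and 190.3 CPM (2.08, 1.06 to 4.19), where keeping called doublets gave 1.35 and ends the call. Astrocyte-like cells, at 1.48, passed it at 3.33 with free RNA taken off, at 1.68 in cells of at most 10% mitochondrial UMIs, and at 1.55 with equal weight per cell and with median of ratios. With free RNA taken off the Dnaja1 ratio was 1.65 in OPC-like and 1.54 in COP-like cells, and among cells of at least 2000 UMIs it was 0.722 in the OPC-like ones.

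Hspd1 (ENSMUSG00000025980, chr1:55077835-55088243, minus strand) and Hspe1 (ENSMUSG00000073676, chr1:55088132-55091307, plus strand) encode the mitochondrial chaperonin HSP60 and its lid HSP10. The 2 genes are transcribed away from each other, their RefSeq starts lie 95 bases apart, and the annotated transcripts overlap there, so the Hspe1 window shown lies within Hspd1. Hspd1 was at 100.4 and 122 CPM in MHb-like neurons (1.21, 1.08 to 1.36), 116 and 145 CPM in LHb-like neurons (1.25, 1.12 to 1.41) and 58.7 and 62.1 CPM in oligodendrocyte-like cells (1.06, 0.812 to 1.37). Hspe1 was at 288 and 336 CPM in MHb-like neurons (1.17, 1.09 to 1.25), 309 and 323 CPM in LHb-like neurons (1.05, 0.972 to 1.13) and 185 and 225 CPM in oligodendrocyte-like cells (1.21, 1.05 to 1.40). The chaperonin pair thus stayed under 1.5-fold in the 3 largest classes. In astrocyte-like cells both passed it, Hspd1 at 37.2 and 105 CPM on 28 and 21 UMIs (2.82, 1.52 to 5.15) and Hspe1 at 166 and 255 CPM (1.53, 1.08 to 2.14). With cells from 500 UMIs these ratios were 1.52 and 1.31, and Hspe1 was at 1.49 with TMM scaling; both settings end the Hspe1 call. With free RNA taken off, Hspd1 was at 8.82. Hspe1 was the one member whose level in free RNA, 754 and 900.03 CPM, exceeded that in every compared class of either library. With free RNA taken off, the Hspe1 ratio in oligodendrocyte-like cells was 1.71.

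Set against each other as sums, the inducible members had larger ratios than the constitutive ones in habenular neurons, oligodendrocyte-like cells and COP-like cells. Member by member the order did not always hold. Hsph1, at 0.939 in oligodendrocyte-like cells, was below each constitutive member there (1.06 to 1.26). Hsph1 was also below Hsp90aa1 in MHb-like neurons (1.27 and 1.34) and in COP-like cells (1.66 and 2.06). The 5 inducible members summed had a ratio of 1.68 (1.55 to 1.82) in MHb-like neurons and the 5 constitutive members one of 1.17 (1.13 to 1.20). In LHb-like neurons the sums gave 1.48 (1.37 to 1.60) and 1.05 (1.01 to 1.08), in oligodendrocyte-like cells 1.39 (1.25 to 1.55) and 1.20 (1.14 to 1.27), and in COP-like cells 2.75 (2.09 to 3.64) and 1.42 (1.22 to 1.64). OPC-like cells gave 2.35 and 1.37, and microglia-like cells 1.93 and 1.32. The order was the opposite in astrocyte-like cells at 1.17 (0.660 to 1.99) and 1.40 (1.18 to 1.66), in mural-like cells at 0.833 and 1.17, and in thalamus-like neurons at 1.03 and 1.06. In free RNA they gave 1.06 (0.965 to 1.17) and 1.08 (1.05 to 1.11), with no such gap. As a share of the UMIs of all 10 members, which does not depend on scaling, the inducible members made up 10.5% (9.83 to 11.1) in control and 14.4% (13.8 to 15.1) in foot shock in MHb-like neurons. The share was 10.9% (10.3 to 11.5) and 14.8% (14.1 to 15.6) in LHb-like neurons, 19.1% (17.8 to 20.4) and 21.4% (19.9 to 22.9) in oligodendrocyte-like cells, and 18.3% (14.9 to 22.2) and 30.4% (26.4 to 34.6) in COP-like cells. In free RNA it was 9.53% and 9.38%, with intervals that overlapped. For this share, intervals of the 2 libraries also overlapped in oligodendrocyte-like, OPC-like, astrocyte-like, microglia-like and mural-like cells and in thalamus-like neurons, and did not in the other 3 classes. Mural-like cells had the highest share, 48.6% and 40.3%, with Hspb1 giving 76 of 89 and 37 of 75 inducible UMIs.

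**Figure D3:**
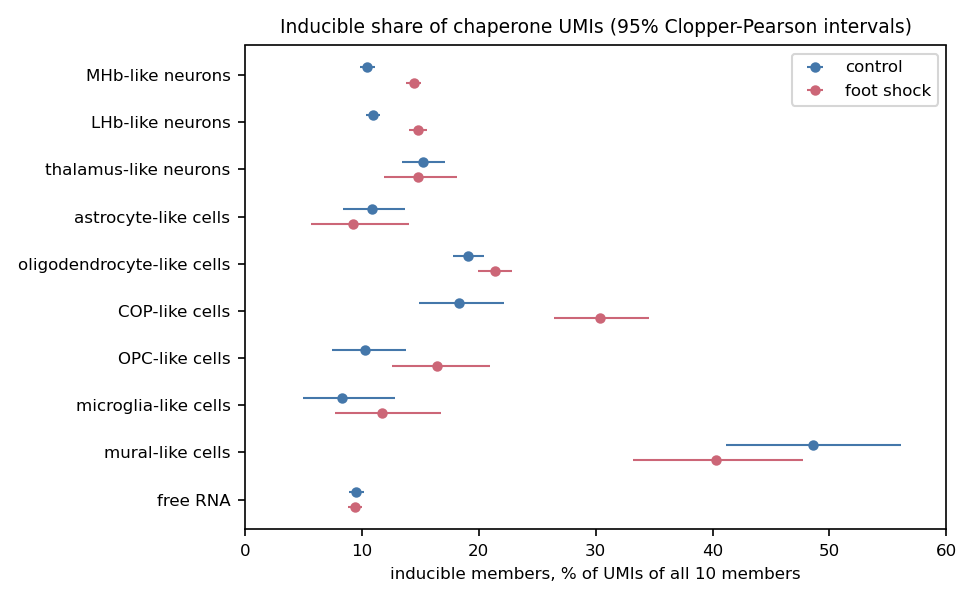
Inducible members as a percentage of the UMIs of all 10 members (x axis) in the 9 compared classes and in free RNA, control in blue and foot shock in red; points are shares and bars 95% Clopper-Pearson intervals. The share is higher in foot shock in MHb-like neurons (10.5% and 14.4%), LHb-like neurons (10.9% and 14.8%) and COP-like cells (18.3% and 30.4%), and level in free RNA (9.53% and 9.38%).

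The smaller classes differed in which members passed 1.5-fold. In COP-like cells 6 of 9 measured members were higher (Hspa1a, Hspa1b, Dnajb1, Hsph1, Hsp90aa1 and Hspe1, the last at 1.52, 1.12 to 2.04), against 12.4% of genes, and the member median was 0.73 beside -0.04 for all genes. Hspe1 there was at 1.48 with TMM scaling and 1.47 with doublets kept. In the same cells 6 of 6 neuron markers were found in both libraries, summing to 203 CPM in the control library and 596 CPM in that of foot shock, and the habenula neuron markers, 5 of 5 found in both, summed to 132 and 626 CPM. In OPC-like cells 2 of 7 members were higher, against 14.8%, and their habenula neuron markers, 5 of 5 in both, summed to 322 and 1384 CPM. In astrocyte-like cells 3 of 7 were higher (Hsp90aa1, Hspd1 and Hspe1), against 13.3%, with 5 of 5 habenula neuron markers at 189 and 569.6 CPM. The part of these neuronal transcripts in the member values was not tested. Microglia-like cells had 2 of 5 higher, against 20.7%, and thalamus-like neurons 0 of 7, against 7.19%. In mural-like cells 1 of 5 was higher, against 9.5%, and 1 of 5, Hspb1, was lower, against 21.8%. In free RNA 2 of 10 members were higher (Hspa1b and Dnajb1), against 8.32%, and 1 of 10, Hspb1, lower, against 10.8%, a call that ends with barcodes above 100 and up to 300 UMIs. With 1010 to 7328 genes measured in the small cell classes and 54 to 593 cells per library, shares of this size rest on few UMIs.

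Within classes the same members stood higher in most subgroups. Clusters were read in the MHb-like, LHb-like, oligodendrocyte-like and astrocyte-like classes, since each of the other compared classes was a single cluster. Of all 28 clusters, 12 were in these classes and had at least 50 cells in each library. They were 5 MHb-like, 3 LHb-like, 3 oligodendrocyte-like and 1 astrocyte-like. Hspa1a was higher in foot shock in 5 of 5 MHb-like clusters, with ratios of 1.96 to 8.44 and intervals above 1 in all 5. Dnajb1 was higher in the same 5 of 5, with ratios of 1.84 to 2.48 and intervals above 1 in all 5. In LHb-like clusters Dnajb1 was higher in 3 of 3, at 1.31 to 1.89, with 2 intervals above 1. In oligodendrocyte-like clusters Dnajb1 was higher in 3 of 3, at 1.30 to 1.99, with 1 interval above 1. Hspa8 was higher there in 3 of 3, at 1.19 to 1.28, with 2 intervals above 1. Hspa8 had no common direction over the MHb-like clusters, with ratios of 0.777 to 1.38, and was lower in 3 of 3 LHb-like clusters, at 0.831 to 0.933. The clusters of a class share its library, so they are no replicates of the treatment.

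**Figure D4:**
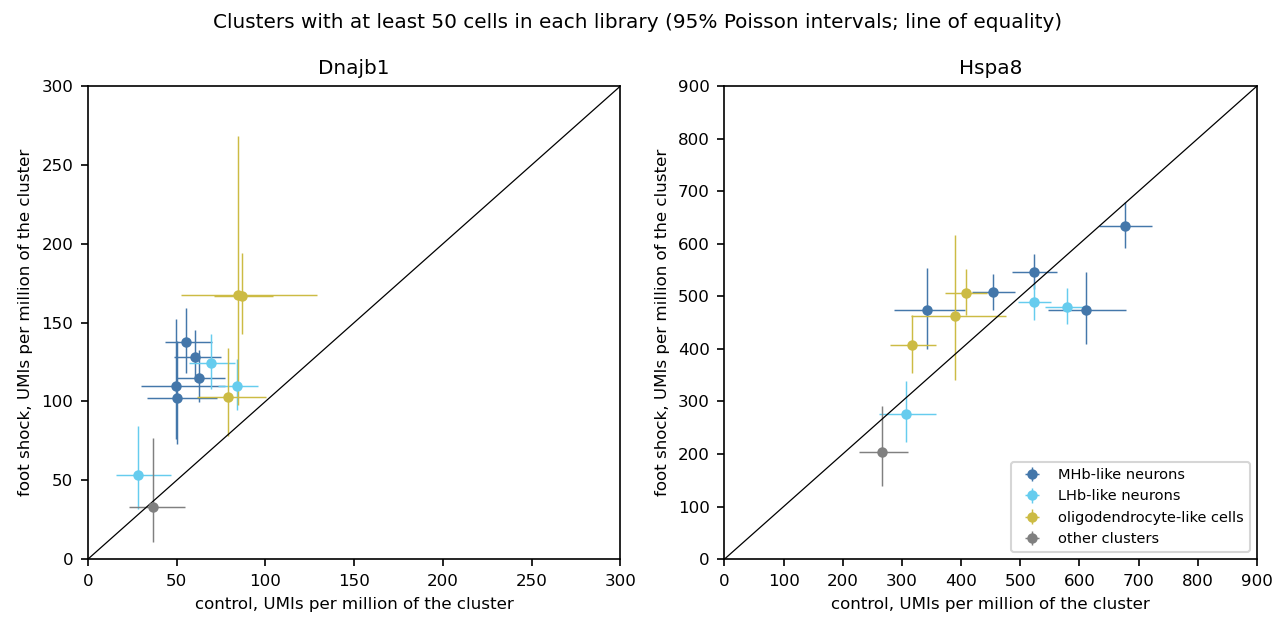
Level of Dnajb1 (left) and Hspa8 (right) in control (x axis) and foot shock (y axis), in CPM of the cluster. Shown are the 12 MHb-like, LHb-like, oligodendrocyte-like and astrocyte-like clusters with at least 50 cells in each library. Bars are 95% Poisson intervals, the line marks equal levels and the grey point is the astrocyte-like cluster. The 5 MHb-like, 3 LHb-like and 3 oligodendrocyte-like clusters lie above the line for Dnajb1, while for Hspa8 they lie on both sides of it.

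RNA quality was read beside the inducible members by the mitochondrial share of a cell's UMIs. Dnajb1 had a ratio of 2.37 (1.96 to 2.88) in MHb-like neurons with at most 5% mitochondrial UMIs and 2.01 (1.64 to 2.48) in those with more. Hspa1a had 3.43 (2.01 to 6.12) and 4.73 (2.50 to 9.89) in the same cells. In oligodendrocyte-like cells the Dnajb1 ratio was 1.26 (0.880 to 1.80) at or under 5% and 2.03 (1.61 to 2.58) above it. The barcodes left out for more than 20% mitochondrial UMIs, 63 in control and 188 in foot shock, held 0 and 2 UMIs of Hspa1a. They held 96717 and 295660 UMIs in all, so the Poisson intervals reach 38.1 and 24.4 CPM. A level below that of MHb-like neurons (5.98 and 23.1 CPM) therefore cannot be read from these barcodes.

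Other genes of the heat shock pathway were read in the same classes. Of 25 measured cytosolic co-chaperones and other HSF1 targets in MHb-like neurons, 1 was higher, against 3.08% of all genes. None was lower, against 4.55%, and the list median was 0.16. That gene was Bag3, an exchange factor that links HSP70 to autophagy, at 0.996 and 4.27 CPM on 5 and 24 UMIs (4.29, 1.60 to 14.4). St13, an HSP70 cofactor, was at 404 and 334 CPM (0.829, 0.778 to 0.883), and Cacybp at 95.8 and 126 CPM (1.31, 1.17 to 1.48). In LHb-like neurons 1 of 24 was higher, against 3.59%, Hspb6 at 7.01 and 13.6 CPM (1.93, 1.24 to 3.04), named after its value was seen. There 0 were lower, against 4.94%. In oligodendrocyte-like cells 1 of 24 was higher, against 5.35%, Bag3 on 15 and 16 UMIs (1.51, 0.698 to 3.27), and 1 lower, against 13.8%, Dnajb5 on 17 and 8 UMIs (0.665, 0.248 to 1.63), the latter also named after its value was seen. Cryab, a small heat shock protein abundant in these cells, was at 3219 and 3416 CPM (1.06, 1.03 to 1.10). Counting intervals of this list lay above 1 for 8 of 25 genes in MHb-like neurons, against 6.6% of all genes. They did so for 1 of 24 in LHb-like neurons, against 6.27%, and 1 of 24 in oligodendrocyte-like cells, against 5.42%. Below 1 lay 3, 1 and 4 in the same order of classes. The share of all genes below 1 was taken in LHb-like neurons alone, at 11.2%.

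Among heat shock factors and their regulators 0 of 8 were higher in MHb-like or LHb-like neurons, and 0 of 4 in oligodendrocyte-like cells. Of all measured genes, 3.08% were higher in MHb-like neurons, 3.59% in LHb-like neurons and 5.35% in oligodendrocyte-like cells. In the same order of classes, 4.55%, 4.94% and 13.8% of genes were lower. These shares stand beside every count of called genes in this paragraph. Hsf1, the main heat shock factor, was at 21.7 and 17.98 CPM in MHb-like neurons (0.828, 0.625 to 1.10) and at 28.0 and 22.7 CPM in LHb-like neurons (0.809, 0.612 to 1.06). Hsf2, a related factor, was at 58.4 and 46.5 CPM in MHb-like neurons (0.796, 0.671 to 0.944), at 54.1 and 35.4 CPM in LHb-like neurons (0.655, 0.529 to 0.807) and at 43.1 and 18.5 CPM in oligodendrocyte-like cells (0.429, 0.278 to 0.647), and was called lower in the latter 2 classes. None of 15 endoplasmic reticulum chaperones was called in either direction in MHb-like neurons, LHb-like neurons or oligodendrocyte-like cells, and their medians were 0.06, 0.02 and -0.02. Hspa5, the HSP70 of that compartment, was at 84.9 and 88.5 CPM in MHb-like neurons (1.04, 0.914 to 1.19). Among other HSP70 and HSP90 genes 0 of 7 were called in MHb-like neurons and 0 of 6 in LHb-like neurons, and 1 of 7 was lower in oligodendrocyte-like cells, Hspa2 on 29 and 9 UMIs (0.438, 0.183 to 0.951), named after its value was seen. None of 7 subunits of the cytosolic chaperonin TRiC was called in these 3 classes either, with medians of -0.07, -0.14 and 0.07. Of 7, 7 and 4 measured genes of the integrated stress response, 0 were higher in these classes. In MHb-like neurons Chac1 was called lower on 28 and 20 UMIs (0.638, 0.341 to 1.17), in oligodendrocyte-like cells Ppp1r15a on 63 and 29 UMIs (0.650, 0.404 to 1.02), and in LHb-like neurons none was; both genes were named after their values were seen.

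Stress and activity genes were read beside the chaperones in the same cells. Rapid immediate early genes are known to be switched on by neuronal firing and by handling of tissue. In MHb-like neurons 5 of 11 measured genes were higher and 0 lower, against 3.08% and 4.55% of all genes, with a median of 0.44. In LHb-like neurons 5 of 11 were higher and 0 lower, against 3.59% and 4.94%, with a median of 0.52. Egr1 was at 5.38 and 17.1 CPM in MHb-like neurons (3.18, 2.05 to 5.07) and Fos at 9.35 and 33.1 CPM in LHb-like neurons (3.54, 2.52 to 5.04). Free RNA held Egr1 at 7.76 and 23.1 CPM and Fos at 15.5 and 72.8 CPM, above these neuronal levels in both libraries. Egr1 in LHb-like neurons was above free RNA, at 16.2 and 40.4 CPM. In free RNA 12 of 14 measured immediate early genes were higher, against 8.32% of genes, with a median of 1.56. In mural-like cells 8 of 8 were lower, against 21.8%. The part of free RNA in the neuronal ratios was not tested. In oligodendrocyte-like cells 2 of 7 immediate early genes were higher (Nr4a1 and Zfp36) and 3 lower (Jun, Arc and Btg2), against 5.35% and 13.8% of all genes, all but Jun and Arc named after their values were seen. Glucocorticoid-induced genes had 3 of 10 higher in MHb-like neurons (Sgk1, Ddit4 and Mt2, of which Sgk1 was named after its value was seen), against 3.08%. All 3 lay below free RNA in both libraries. Mt2 was at 53.0 and 106 CPM, against 822 and 1357 CPM in free RNA. Ddit4 was at 6.97 and 17.8 CPM, against 28.8 and 51.3 CPM. Sgk1 was at 0.996 and 7.12 CPM, against 17.2 and 104 CPM. The part of free RNA in these ratios was not tested. In LHb-like neurons 0 of 12 were higher, against 3.59%, and 1 lower, against 4.94%. The latter was Zbtb16 on 21 and 10 UMIs (0.637, 0.268 to 1.41), also named after its value was seen. In oligodendrocyte-like cells 9 of 14 were higher, against 5.35%, and 2 lower, against 13.8%, with a median of 1.13. There Sgk1, a kinase switched on by corticosteroids, was at 71.8 and 1319 CPM (18.4, 15.7 to 21.6), a larger ratio than that of any of the 10 members in the same cells.

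The genes whose levels ran most like those of the pair were sought over 18 sums, 9 classes in 2 libraries, as Pearson r of log2(CPM + 1) among 10217 genes with at least 200 UMIs. For Hspa1a and Hspa1b summed these were Pcbp2 (r 0.82), Slc9a3r2 (0.81), Ehd1 (0.81), Insc (0.81) and Jam3 (0.80), and Dnajb1 ranked 12 with 0.75. For Dnajb1 they were Ndufaf2 (0.79), Arfgap3 (0.75), Bcap31 (0.74), Gm11273 (0.69) and Hspa1a (0.69). Hspa8 reached 0.30 with the pair and Hspd1 -0.14. The 18 sums share libraries and differ in depth, and the pair has few UMIs in several of them, so the ranking is a description.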

How the data were processed

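Droplet RNA sequencing with 3' version 2 chemistry was done on 1 pooled library per group. Per the submitters' processing notes, the authors used Cell Ranger 2 and mm10, and the deposited matrices hold unnormalised UMI counts for each gene and barcode (737280 barcodes per matrix, from the values themselves). Their annotation release was not given in the sources used here; 28339 of 28692 gene identifiers occur in GENCODE vM21, which gave gene positions.

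Cells were barcodes with at least 1000 UMIs, 500 to 6000 genes and at most 20% mitochondrial UMIs, and doublets were called with Scrublet at an expected rate of 0.08, and 249 control doublets (4.85%) and 69 in foot shock (1.43%) were removed. Both libraries were clustered together in scanpy 1.11.5 (2000 variable genes, 30 principal components, 15 neighbours, Leiden resolution 1). Members and listed response genes, as well as mitochondrial, ribosomal and hemoglobin genes, were not used as features, so no member shaped a cluster. A cluster was named from markers when it held at least 3 of a type's markers, each in 10% or more of the cells and no lower than 20% of its level in the cluster where it peaked, and it took the type with the largest share of markers held; Pou4f1 set the habenular names. Clusters whose leading genes held more markers of another type were called mixed. These naming thresholds were set after the clusters were seen. Mixed clusters (13 and 80 cells) were left out. For free RNA, barcodes of 10 to 100 UMIs were summed (74374 of the control and 94619 of the foot shock library).

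Sums of UMIs over the cells of a class were divided by their total. Levels have exact Poisson, ratios exact conditional binomial and shares exact Clopper-Pearson intervals of 95%; a count of 0 was given the limit of 3 counts. A prior count of 0.5 entered the log2 ratios behind list medians. TMM factors came from edgeR 4.0.16, as an alternative scaling. In data simulated for MHb-like neurons with counting error alone, 96% of 50 genes set 2-fold higher and 4.45% of 11425 unchanged genes passed the 1.5-fold rule. The members, lists and comparisons were chosen with earlier results of these data known. By the naming rule, every member could be named, with 2 list genes at each end among those of at least 100 UMIs, Hsp90ab1, Hspa5, Bag3, Hsf1 and Cryab, and the 5 genes most like the pair and Dnajb1. Of the settings tried, 19 alternatives were planned.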

Additional observations from a re-analysis of the deposited data

Results flagged for a closer look

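Hspa8, the constitutive cytosolic HSP70, had a ratio of foot shock to control of 1.26 in oligodendrocyte-like cells and of 0.896 in LHb-like neurons. It is listed because the counting intervals of these 2 ratios, 1.15 to 1.39 and 0.843 to 0.951, lie on opposite sides of 1. The directions were the same in 3 of 3 oligodendrocyte-like clusters, with 2 intervals above 1. They were also the same in 3 of 3 LHb-like clusters, with 1 interval below 1. These clusters are parts of the same sums, so they give no separate support. Over the 5 MHb-like clusters the Hspa8 ratio ran from 0.777 to 1.38. With 1 library per group the difference between the cell classes was not tested. Neither ratio reached 1.5-fold. Over the alternatives the Hspa8 ratio ran from 1.21 to 1.43 in oligodendrocyte-like cells and from 0.888 to 0.928 in LHb-like neurons.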

How the results depend on the processing

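In the 3 largest classes (MHb-like, LHb-like, oligodendrocyte-like) the summed inducible members kept a ratio above 1 under each alternative that gave a value. The summed constitutive members with free RNA taken off were at 1.22 (MHb-like neurons) and 1.30 (oligodendrocyte-like cells), at 1.28 (TMM) and 1.30 (median of ratios) in oligodendrocyte-like cells, and at 1.08 in LHb-like neurons with median of ratios and with equal weight per cell. Counting Hsp90aa1 as inducible put the inducible share at 35.9% and 42.2% in MHb-like neurons (control, foot shock), 40.5% and 45.3% in LHb-like neurons, and in oligodendrocyte-like cells at 49.1% and 50.2%. With free RNA taken off it was 11.5% and 15.5%, 11.9% and 15.9%, and 23.6% and 24.6%. With at least 100 UMIs per gene the LHb-like neurons had 1 member higher and a member median of 0.17, because Hspa1a and Hspa1b fall below that limit. Thinned to 2000 UMIs, 11.03% and 21.7% of MHb-like neurons, 13.9% and 19.8% of LHb-like neurons, and of oligodendrocyte-like cells 15.9% and 23.6%, had a Dnajb1 UMI. Directions reversed in small classes: among cells of at least 2000 UMIs, Hsp90aa1 in OPC-like cells was at 0.981 and the inducible sum in microglia-like cells at 0.732. With at least 100 UMIs per gene the member median was -0.064 in microglia-like cells and -1.05 in mural-like cells, where fewer members remained, and in mural-like cells it was -0.27 with free RNA taken off. The cause was not tested. Levels in free RNA moved with the barcodes read, and Hspa1a, at 79.6 and 26.0 CPM in barcodes of 1 to 9 UMIs, changed direction. Ratios with free RNA taken off rest on shares that are too large for Hspb1 (60.7 UMIs expected and 6 found in control MHb-like neurons). No paired analysis was possible because each group holds 1 library. Depth limits Hspb1, which reached 20 UMIs in 1 of 9 classes, and Hspa1a and Hspa1b, which did so in 4 of 9 each, and intervals cover counting error, not the spread between animals or preparations.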

Other observations

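Cell types too rare or too unequal to be compared also held chaperone transcripts. Ependymal-like cells, the ciliated lining of the ventricle (15 cells in control, 38 in foot shock), had Hsp90aa1 at 2437 CPM (1991 to 2953) and 2527 CPM (2302 to 2768), and Hsph1 at 890.5 and 789.7 CPM, while MHb-like neurons had Hsph1 at 123 and 157 CPM. Hspa1b was the more abundant of the HSP70 pair there, with 10 of 13 and 19 of 24 UMIs (76.9% and 79.2%), whereas it made up 9.43% of the pair in epithelial-like cells. Dnajb1 in ependymal-like cells was at 70.3 CPM on 3 UMIs and 398 CPM on 73 UMIs.

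Endothelial-like cells (64 and 46 cells), which line blood vessels, had Hspa1a at 95.7 CPM (15 UMIs) in the control library and 307 CPM in that of foot shock (34 UMIs), and Hspa1b at 19.1 and 145 CPM. Hspb1 there was at 836 and 470.3 CPM, the same order as in mural-like cells, and Hsp90aa1 at 140.4 and 569.7 CPM. The 503 epithelial-like cells of the foot shock library had Hspb1 at 185 CPM, Hspa8 at 921 CPM and Hspe1 at 732 CPM, and Hspa1a at 38.9 CPM. In the barcodes of 1 to 9 UMIs the epithelial markers summed to 200.3 CPM in the control library and 1332 CPM in that of foot shock, and Hspb1 was at 178 and 62.8 CPM. In those above 100 and up to 300 UMIs the markers summed to 32.8 and 468 CPM, and Hspb1 was at 31.0 and 33.0 CPM. The order of the epithelial markers was reversed in barcodes of 10 to 100 UMIs, the window read as free RNA. There they fell from 89.6 CPM (control) to 60.1 CPM (foot shock), and Hspb1 from 57.4 to 14.5 CPM.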
